A study of Mus musculus with 10 samples.

Results

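The transporters of sugars, amino acids, peptides and related small solutes were described in mouse small intestine after loss of the R-spondin receptors Lgr4 and Lgr5 and after withdrawal of R-spondin itself. Members were all genes whose name on the array was Slc followed by family 1, 2, 3, 5, 6, 7, 15, 16, 36 or 38 and a member number, whatever their values, and each was read by its brightest probe over the organoid arrays. The rule found 97 genes, carried by 164 probes, among 28095 gene names on the array. By substrate they were 34 amino acid transporters, 17 sugar and polyol transporters, 17 transporters of neurotransmitters and osmolytes, 7 of monocarboxylates, 4 of peptides, 4 of vitamins, choline, iodide or hormones, and 14 with no substrate assigned here.

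The transporters were measured in 3 comparisons on 10 two-colour arrays. Deleted crypts came from P450Cre Lgr4 fl/fl Lgr5 fl/fl mice 1 day after deletion of both receptors, with 2 biological replicates, each hybridised as a dye swap against wild type control crypts on the same array. The labels do not name the agent that induced deletion in the crypt mice, nor say whether the wild type mice received it. Deleted organoids came from VillinCre_Lgr4 fl/fl-Lgr5 fl/fl mice and wild type organoids from VillinCre_wt mice, 2 cultures each, both 1 day after tamoxifen induction. Organoids without R-spondin had been kept for 1 day in medium with EGF and noggin alone (EN), and organoids with R-spondin in the full medium (ENR), 1 culture each. Every organoid RNA was labelled with Cy5 and every array of organoids carried a commercial mouse reference RNA in Cy3. P450Cre is an inducible Cre driven by a cytochrome P450 promoter and VillinCre is driven by the villin promoter of the intestinal epithelium, so the deletion acts where those promoters are active. The labels do not say how many mice or wells stand behind a sample, so p-values measure the spread between these samples, which may be technical.

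Small intestinal epithelium takes up digested food through solute carriers placed on its 2 faces: on the apical side, cotransporters use the sodium or proton gradient to pull glucose, amino acids and small peptides into the enterocyte, and on the basolateral side exchangers and facilitative carriers release them to the blood. Many SLC7 light chains reach the membrane only when bound to a heavy chain of family SLC3. Dividing cells rely on a partly different set, which brings in glutamine, leucine, serine, cystine and glucose for growth and exports lactate. R-spondins bind Lgr4 and Lgr5 and amplify Wnt signalling, which maintains the stem cells of the crypt.

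From this textbook division 2 sets were read beside the whole family. They were drawn up with earlier results of these data known, so the contrast between them is not an independent check. The absorptive set held 13 members, namely Slc1a1, Slc2a2, Slc2a5, Slc3a1, Slc3a2, Slc5a1, Slc6a19, Slc7a7, Slc7a8, Slc7a9, Slc15a1, Slc16a10 and Slc36a1. The growth set held 11 members, namely Slc1a4, Slc1a5, Slc2a1, Slc3a2, Slc7a1, Slc7a5, Slc7a6, Slc7a11, Slc16a1, Slc38a1 and Slc38a2. Slc3a2, the heavy chain shared by absorptive and growth-linked exchangers, stood in both sets. A member counted as measured where its probe was well above background on every usable array of at least 1 group. By that rule 52 members were measured in crypts, 55 in the deletion organoids and 70 in the R-spondin organoids, and 21 were measured in none of the comparisons. The others were not well above background (44, 38 and 22 members) or had no usable spot (1, 4 and 5 members).

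The deleted receptor genes and the quality of the arrays were read first. Lgr4 was at log2 ratios of -1.62, -1.54, -1.79 and -1.43 in deleted over wild type crypts, and Lgr5 at -1.43, -2.36, -1.52 and -1.41. Lgr4 had Cy5 signals of 161 and 286 in deleted organoids, against 2053 and 3165 in wild type organoids. Lgr5 was not well above background in either deleted organoid culture, at 70.8 and 78.1, against 985 in the wild type culture with a usable spot. Whether these probes lie inside the deleted exons is not given in the sources used here. Over all probes the dye-swapped pair of crypt replicate 1 had a correlation of 0.231 and that of replicate 2 of 0.874, and across the replicates it ran between 0.271 and 0.336. On the 4 deletion organoid arrays the Cy3 channel read 5883 to 6564 on negative control spots and 3.66% to 4.26% of its gene probes were above background, so organoids were compared by the Cy5 signal, and ratios to the reference RNA are given as an alternative. Between 40.2% and 63.1% of gene probes were above background in Cy5 over the 10 arrays.

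In crypts, the apical and basolateral transporters of absorption lay mostly above wild type 1 day after deletion, while the growth set lay around 0. Of the 52 members measured none passed an adjusted p of 0.05 in limma in either direction, where over all 12128 genes 0.429% were called higher and 0.124% lower. At an unadjusted p under 0.05, 13 members were higher (25% of members, against 6.66% of all genes) and 4 were lower (7.69%, against 7.88%). On all 4 arrays 20 members were higher (38.5%, against 13.1% of all genes) and 5 were lower (9.62%, against 13.8%). The median log2 change of the members was 0.19, beside -0.02 over all genes. The absorptive set had a median of 0.38 with 11 of 13 above 0, and the growth set a median of 0.01 with 5 of 10 above 0.

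The apical cystine and amino acid carriers led the crypt list. Slc3a1, the heavy chain of the apical exchanger for cystine and dibasic amino acids, had log2 ratios of 2.07 and 0.87 in replicate 1 and of 1.12 and 1.00 in replicate 2 (deleted over wild type). All 4 arrays read deleted crypts above wild type crypts, with a mean log2 change of 1.27 ± 0.24 (SE, n = 2 replicates; limma adjusted p = 0.0912). Slc6a19, the apical sodium-coupled carrier of neutral amino acids, had log2 ratios of 1.65, 0.71, 0.86 and 1.48, a mean of 1.18 ± 0.23 (SE, limma adjusted p = 0.097). These 2 members missed the threshold under the main settings and passed it when marked outlier spots were kept (limma adjusted p = 0.00309 for Slc3a1 and 0.00763 for Slc6a19). Those were the lowest values over the alternatives tried, and neither member passed in all of them. Slc7a9, the light chain that pairs with Slc3a1, did not follow it: its ratios were 0.38 and 0.50 in replicate 1 but -0.09 and -0.10 in replicate 2.

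Sugar carriers of the enterocyte were also above wild type on every crypt array with a usable spot. Slc2a2, the basolateral exit for glucose and fructose, had log2 ratios of 1.46, 0.79, 0.67 and 0.66 and a mean change of 0.89 ± 0.25 (SE, limma adjusted p = 0.188). Slc5a1, the apical sodium-glucose cotransporter, had ratios of 0.48, 1.25, 0.31 and 0.36, a mean of 0.60 ± 0.25 (SE, limma adjusted p = 0.334). Slc2a5, the apical fructose carrier, had 3 usable arrays at 0.53, 1.21 and 1.01. Neither the glucose pair nor the fructose carrier passed the adjusted test, and Slc2a1, the glucose carrier of most cells, lay at 0.10, 0.49, 0.10 and 0.94.

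The remaining absorptive members were smaller or divided between the replicates. Slc15a1, the apical carrier of dipeptides and tripeptides, read 1.11 and 0.88 in replicate 1 against -0.95 and -0.80 in replicate 2, so the 2 replicates gave opposite directions and the mean was 0.06 ± 0.41 (SE). Slc16a10, a basolateral carrier of aromatic amino acids, was above wild type on all 4 arrays with a mean log2 change of 0.66, but a dimmer probe measured in crypts lay at 0.07. Slc36a1, the proton-coupled carrier of small amino acids, read 0.66, 0.16 and 0.03 on its 3 usable arrays, and Slc7a7, the light chain of the basolateral exchanger of dibasic amino acids, read 0.21 and 0.40 on its 2 usable arrays. Slc7a8, the light chain of the basolateral neutral exchanger, had a mean of -0.02 and Slc1a1, the apical glutamate carrier, a mean of -0.23, each with arrays on both sides of 0.

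Outside the absorptive set, members of the SLC16 family lay at both ends of the crypt values, and the 11 of the family that were measured had a median of 0.25. Slc16a6 read 1.03, 0.66, 1.15 and 1.097, Slc16a5 read 0.56, 1.01, 1.27 and 1.08, and Slc16a3, a lactate exporter of glycolytic cells, read 1.38, 0.48, 0.85 and 1.02 (log2, deleted over wild type). Slc16a9, with a mean of 0.82, and Slc7a15, with a mean of 0.97, were likewise above 0 on all 4 arrays, but a dimmer Slc7a15 probe lay at 0.16. In the same family Slc16a12, a creatine carrier, was the lowest member measured, with -1.02, -1.098, -0.96 and -1.39 and a mean of -1.12 ± 0.23 (SE, limma adjusted p = 0.109). Over the alternatives tried its log2 change ran between -1.46 and -0.83, and it did not pass the adjusted test in all of them. Slc16a7, a carrier of pyruvate and lactate, had a mean of -0.68, and Slc1a3, a sodium-dependent glutamate carrier known from glia, had a mean of -0.65, both below 0 on all 4 arrays.

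Growth-set differences in crypts were mostly small. Slc7a1, the cationic amino acid carrier of most cells, read -0.48, -0.18, -0.59 and -0.45, below wild type on each array, with a mean of -0.42 (limma adjusted p = 0.453). Slc16a1, the lactate and pyruvate carrier, had 0.11 and -0.60 in replicate 1 and -1.13 on the usable array of replicate 2. Slc7a5, the light chain of the exchanger of large neutral amino acids, had a mean of 0.00 and Slc38a2, the sodium-coupled carrier that starvation induces, a mean of 0.08. Slc7a11, the cystine and glutamate exchanger, was not well above background in crypts, nor were Slc5a8 and Slc6a14.

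**Figure D1:**
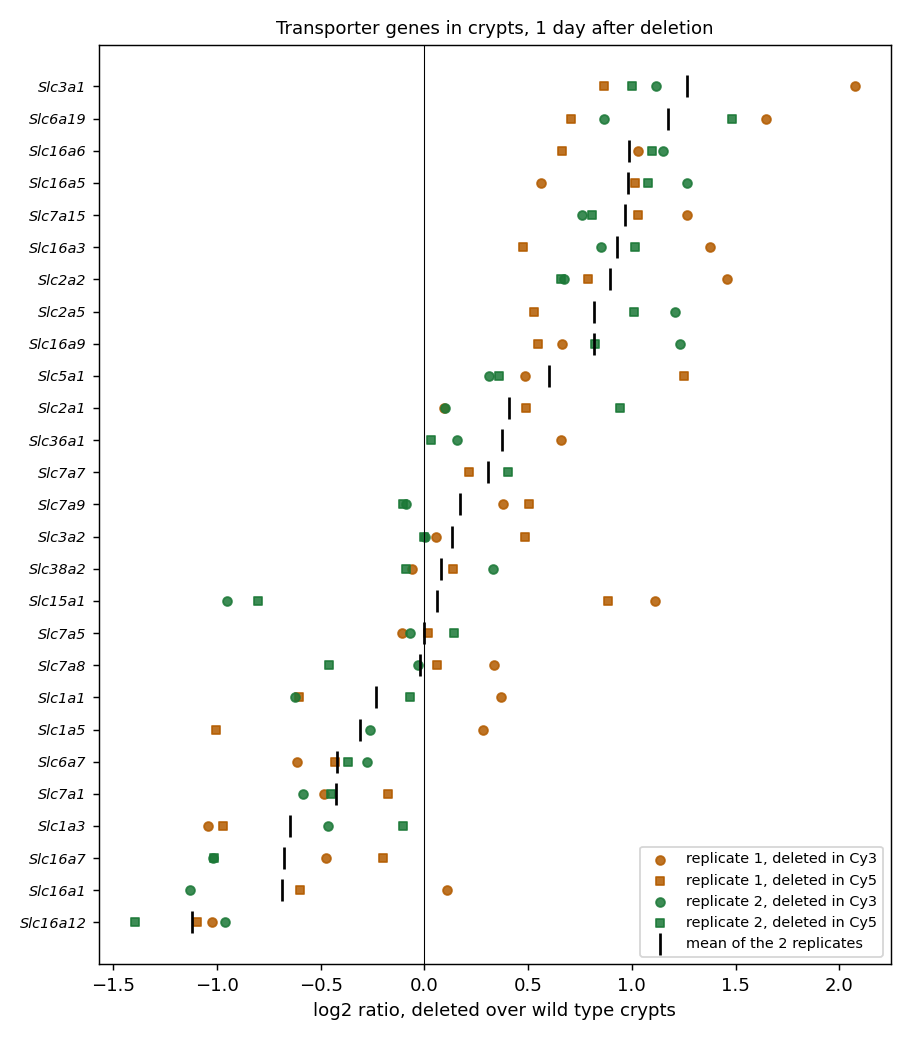
Log2 ratio of deleted over wild type crypts (x axis) for each named transporter measured in crypts (y axis, ordered by the mean), with circles for arrays with deleted RNA in Cy3, squares for Cy5, orange for replicate 1, green for replicate 2 and a bar for the mean of the 2 replicates. Slc3a1 and Slc6a19 lie right of 0 on all 4 arrays, Slc16a12 lies left of 0 on all 4, and the Slc15a1 points of replicate 1 (1.11 and 0.88) and replicate 2 (-0.95 and -0.80) lie on opposite sides.

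Other gene groups lay above or below wild type in the same crypt arrays. Brush border hydrolases, the digestive enzymes of the same membrane, were above 0 for 12 of 12 measured genes, with a median of 0.61. Markers of enterocytes were above 0 for 11 of 11 measured, with a median of 0.65, at 1.25 in replicate 1 and 0.43 in replicate 2. Markers of T cells were above 0 for 9 of 9 measured with a median of 1.78, and 5 of them passed the adjusted test. Targets of Nrf2, the regulator of detoxifying enzymes, were above 0 for 9 of 9 measured with a median of 1.42. On the other side, stem cell markers were below 0 for 7 of 7 measured with a median of -0.87, and 3 passed the adjusted test. Paneth cell markers were below 0 for 7 of 7 with a median of -0.78, at -1.54 in replicate 1 and -0.77 in replicate 2, and markers of stroma and muscle below 0 for 4 of 4 with a median of -0.60. The part of these cells and genes in the transporter values was not tested, and in whole crypts fewer cells of a type and less RNA per cell cannot be told apart. By replicate, the median of the absorptive set was 0.53 in replicate 1 and 0.34 in replicate 2. Fitted without replicate 1 it was 0.21 and without replicate 2 it was 0.59, over the members also usable in the organoid ratios.

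In organoids, deletion left the absorptive set above wild type on the Cy5 scale and the growth set slightly below, though the growth median turned sign in the authors' deposited ratios. None of the 55 members measured passed an adjusted p of 0.05 in limma (all 13003 genes: 0.0308% higher and 0.00769% lower), the lowest adjusted p being 0.314. At an unadjusted p under 0.05 there were 4 members higher (7.27%, against 3.48% of all genes) and 3 lower (5.45%, against 4.29%). Both deleted cultures lay above both wild type cultures for 15 members (27.3%, against 18.2% of all genes) and below both for 6 (10.9%, against 18.6%). The median log2 change was 0.08 over the members and 0.02 over all genes. It was 0.41 for the absorptive set, of which 11 of 13 lay above 0, and -0.21 for the growth set, of which 3 of 8 lay above 0. Measured as a ratio to the reference RNA the absorptive median was 0.06 and the growth median -0.06. By ratio 9 of 52 members were higher with the groups apart (17.3%, against 19.9% of all genes) and 3 lower (5.77%, against 13.6%). The growth median was -0.39 on slide 1 and -0.04 on slide 2, and 0.05 in the authors' deposited ratios.

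The cystine carrier pair was higher in both deleted cultures. Slc7a9 had Cy5 signals of 9770 and 8560 in deleted organoids, against 5201 and 5772 in wild type organoids, a log2 change of 0.74 ± 0.22 (SE, n = 2 each; limma adjusted p = 0.494). Slc3a1 had 5117 and 5626 in deleted organoids, against 3545 and 4188 in wild type organoids, a log2 change of 0.48 ± 0.22 (SE, limma adjusted p = 0.676). The groups did not overlap for either chain, and neither difference passed the adjusted test. Slc7a7 had 27732 and 32793 in deleted organoids, against 20706 and 23667 in wild type organoids, again without overlap. Slc16a10 had 1133 and 1162 in deleted organoids, against 937 and 661 in wild type organoids.

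The sugar carriers separated less. Slc2a5 had 35002 and 30016 in deleted organoids, against 28025 and 21222 in wild type organoids, with every deleted value above every wild type value. Slc5a1 had 24918 and 19054 in deleted organoids, against 20471 and 12922 in wild type organoids, so the ranges overlapped. Slc2a2 had 3753 and 3733 in deleted organoids, against 3490 and 3778 in wild type organoids, a log2 change of 0.04 ± 0.21 (SE). Slc6a19 also overlapped, with 2356 and 5234 in deleted organoids against 2798 and 3237 in wild type organoids, and its 2 slides gave differences of -0.25 and 0.69. Slc15a1 was dim, at 139 and 176 in deleted organoids against 106 and 145 in wild type organoids.

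The 3 highest members in the deleted organoids were outside the absorptive set. Slc16a11, an SLC16 member with no substrate assigned here, had 576 and 386 in deleted organoids, against 170 and 210 in wild type organoids, a log2 change of 1.32 ± 0.28 (SE, limma adjusted p = 0.314). Slc5a11, a sodium-coupled carrier of myo-inositol, had 8146 and 7165 in deleted organoids, against 4335 and 2880 in wild type organoids, a log2 change of 1.11 ± 0.27 (SE, limma adjusted p = 0.398). Each slide held 1 deleted and 1 wild type culture, and with the slide as a block these 2 members passed the adjusted test in limma, at 0.0399 for Slc16a11 and 0.0331 for Slc5a11. Their changes were 0.19 and 0.39 when measured as ratios to the reference RNA. The share of all genes passing with the slide as a block was not counted. Slc6a3, known as the dopamine transporter of neurons, had 1771 and 1970 in deleted organoids, against 1203 and 889 in wild type organoids.

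Lower members in the deleted organoids were few. Slc1a3 had 149 and 179 in deleted organoids, against 464 and 271 in wild type organoids, a log2 change of -1.12 ± 0.31 (SE, limma adjusted p = 0.467), and its slides gave -1.64 and -0.60. Slc7a5 had 596 and 475 in deleted organoids, against 991 and 776 in wild type organoids, a log2 change of -0.72 ± 0.25 (SE, limma adjusted p = 0.569), although the authors' deposited ratios turned its sign, to 0.30. Slc15a2, a peptide carrier best known from kidney, had 91.6 and 142 in deleted organoids, where 1 of the cultures was above background, against 179 and 246 in wild type organoids. Slc7a6, a light chain that exchanges cationic and neutral amino acids, had 117 and 181 in deleted organoids, against 195 and 212 in wild type organoids, and its change of -0.48 became 0.19 as a ratio to the reference. Slc1a5, the glutamine exchanger, overlapped, at 2445 and 3935 in deleted organoids against 3277 and 5953 in wild type organoids.

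**Figure D2:**
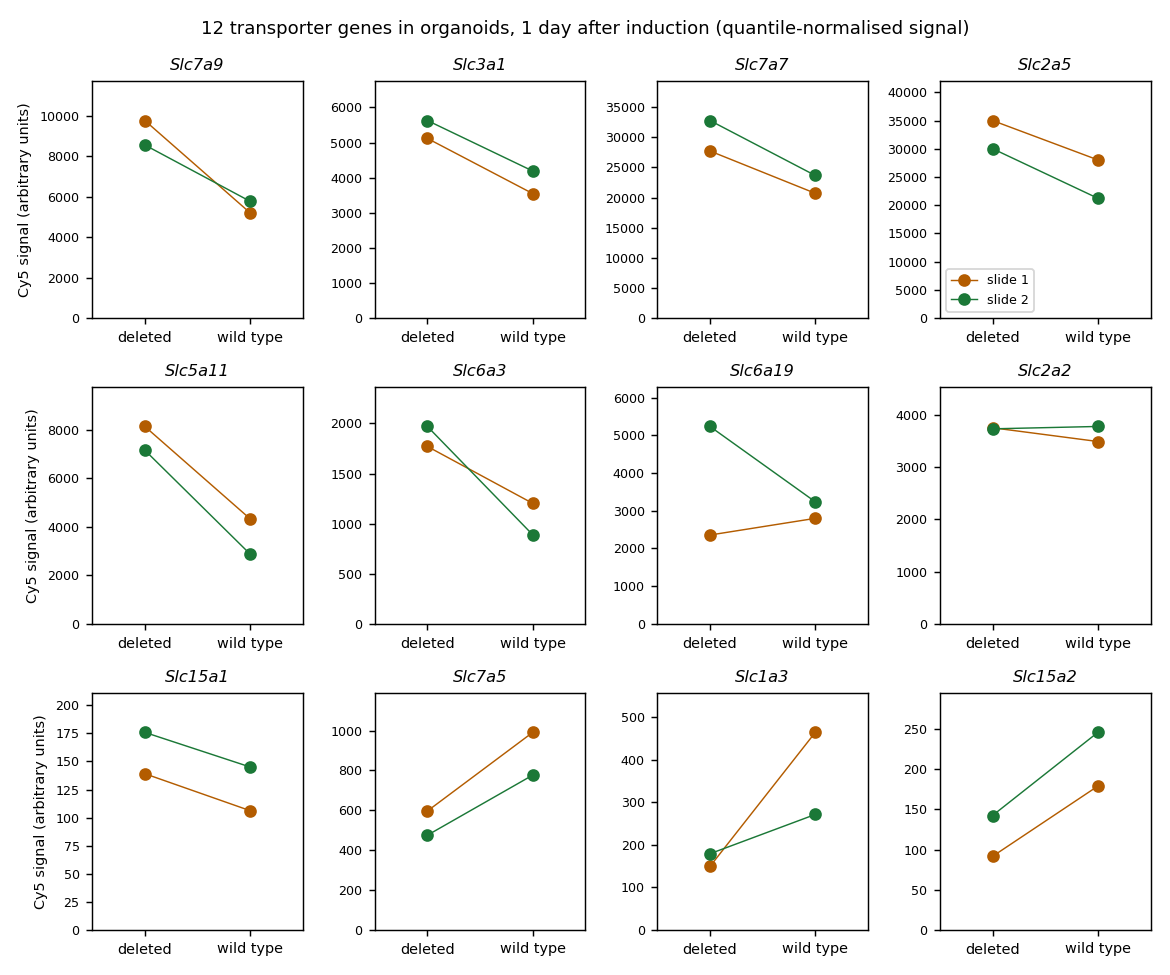
Quantile-normalised Cy5 signal in arbitrary units (y axis, from 0) of 12 transporters in deleted (left) and wild type (right) organoids, with 1 point per culture and lines joining the 2 cultures on the same slide. Slc7a9, Slc3a1, Slc7a7, Slc2a5, Slc5a11 and Slc6a3 have both deleted cultures above both wild type cultures, Slc7a5, Slc1a3 and Slc15a2 have both below, and Slc6a19, Slc2a2 and Slc15a1 overlap.

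Beside these values, the summed Cy5 signal of 7 enterocyte markers usable on all 4 arrays was 205850 and 170372 in deleted organoids, against 140126 and 139263 in wild type organoids. Markers of stem cells were below 0 for 6 of 6 measured with a median of -2.13, and Paneth cell markers below 0 for 8 of 8 with a median of -0.69. Brush border hydrolases were above 0 for 12 of 14 with a median of 0.40, and enterocyte markers for 6 of 7 with a median of 0.52. As ratios to the reference RNA these medians were nearer to 0, at -0.98 for stem cell markers, -0.46 for Paneth cell markers, 0.20 for the hydrolases and 0.10 for enterocyte markers. Of 10 T cell markers, 3 were above background in both deleted cultures and 2 in both wild type cultures, and the median change was -0.03. Genes of hypoxia and glycolysis set the slides apart within each group, with a median log2 difference of -1.36 between deleted culture 2 and deleted culture 1 and of -0.73 between the wild type cultures in the same direction. Bnip3, a mitophagy receptor of this list, had 21914 and 1766 in deleted organoids, against 9256 and 1706 in wild type organoids. Slc2a1 followed the slides rather than the groups, with 10168 and 4067 in deleted organoids, against 9089 and 4260 in wild type organoids. The part of cell composition and of these slide differences in the organoid values was not tested.

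Without R-spondin, the absorptive carriers stood well above the culture with R-spondin, and several growth-set carriers stood below it. With 1 culture a group there is no test, so a member was called where the Cy5 signals differed by at least 2-fold. Of 70 members measured, 15 were past 2-fold higher (21.4%, against 5.53% of 17283 genes) and 4 past 2-fold lower (5.71%, against 7.12%). The absorptive set had a median log2 difference of 1.16, with 9 of 12 past 2-fold higher and 0 lower. The growth set had a median of -0.60, with 1 of 10 past 2-fold higher, the shared heavy chain Slc3a2, and 3 lower. The median was 0.15 over the members and 0.05 over all genes. As ratios to the reference RNA the calls numbered 15 higher and 4 lower of 67 members (4.58% and 6.48% of 16640 genes).

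Amino acid uptake held the largest absorptive differences. Slc36a1 had a Cy5 signal of 1786 without R-spondin, against 415 with R-spondin, 4.30-fold. Slc6a19 had 21514 without R-spondin, against 5468 with R-spondin, 3.93-fold, and Slc7a9 had 21021 without R-spondin, against 5347 with R-spondin, 3.93-fold. Both partners of the cystine exchanger were thus higher without R-spondin, since Slc3a1 had 15111 without R-spondin and 5791 with R-spondin. In the authors' deposited ratios the log2 differences of Slc6a19, Slc7a9 and Slc3a1 were 0.42, 0.82 and 0.75, short of 2-fold, while that of Slc36a1 was 2.00.

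The basolateral chains lay on the same side. Slc7a8 had 22130 without R-spondin, against 8245 with R-spondin, 2.68-fold. Slc7a7 had 71271 without R-spondin, against 33317 with R-spondin, and its heavy chain Slc3a2 had 31378 without R-spondin, against 15458 with R-spondin. Slc3a2 was the member just past the threshold at 2.03-fold, with its second probe short of it at a log2 difference of 0.61. The nearest ones short of 2-fold, named for that place, were Slc7a1 at a log2 difference of -0.93 and Slc6a6, the taurine carrier, at 0.92. A dimmer Slc6a6 probe was past 2-fold higher, at 1.39. Slc1a1 had 1781 without R-spondin and 1838 with R-spondin, 1.03-fold lower, but its second probe, nearly as bright, had 2294 without R-spondin and 1502 with R-spondin, a log2 difference of 0.61, so its direction depended on the probe.

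Among sugar carriers, read by their brightest probes, the basolateral exit had the larger difference and the apical entry the smaller. Slc2a2 had 6118 without R-spondin, against 2760 with R-spondin, 2.22-fold. Slc5a1 had 23402 without R-spondin, against 14164 with R-spondin, 1.65-fold, and its log2 difference of 0.72 was -0.03 as a ratio to the reference and -0.23 in the authors' deposited ratios. By their second probes the carriers lay close together, with log2 differences of 0.87 for Slc2a2, short of 2-fold, and 0.80 for Slc5a1. Slc2a5 had a marked outlier spot without R-spondin and is not compared. Slc15a1 was well above background only without R-spondin, at 103 against 73.1 with R-spondin, at least 1.41-fold higher; here a probe below background enters with its own signal or the array's lowest detected signal, whichever is higher.

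The other members past 2-fold higher carried diverse solutes. Slc5a11 had 17091 without R-spondin, against 3935 with R-spondin, 4.34-fold, although its log2 difference of 2.12 was 0.83 as a ratio to the reference. Over the alternatives tried, the Slc5a11 difference ran from 0.127 to 2.35, so whether it was past 2-fold depended on the processing. Slc16a5 had 2064 without R-spondin, against 586 with R-spondin. Slc6a4, the serotonin transporter, had 5812 without R-spondin, against 2061 with R-spondin, and the authors' deposited ratios gave it the opposite sign, -0.59. Slc2a9, a urate carrier of the glucose carrier family, had 590 without R-spondin, against 210 with R-spondin, and each of its 4 probes was past 2-fold, with log2 differences of 1.04 to 1.49. The last 3 calls, named after their values were seen, were Slc5a9, a sodium-coupled mannose carrier, at 1.31, Slc6a8, a creatine carrier, at 1.25 and Slc16a10 at 1.18, whose other probes lay at 0.65 and 0.64.

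The lower members were carriers of small neutral and cationic amino acids and of creatine. Slc38a1, a sodium-coupled carrier of glutamine and other small neutral amino acids, had 2261 without R-spondin, against 9849 with R-spondin, 4.36-fold lower. Its 5 probes all lay lower, with log2 differences between -2.16 and -1.13. Slc7a6 had 208 without R-spondin, against 495 with R-spondin, Slc1a4, the exchanger of alanine, serine and cysteine, had 699.7 without R-spondin, against 1619 with R-spondin, and Slc16a12 had 476 without R-spondin, against 1039 with R-spondin. These 4 were past 2-fold lower under each of the 9 alternatives tried. Below the 2-fold mark, Slc7a1 had 1559 without R-spondin against 2965 with R-spondin, with a dimmer second probe at a log2 difference of 0.05, and Slc16a1 had 10650 without R-spondin against 16124 with R-spondin. Slc2a1 had 11700 without R-spondin against 17077 with R-spondin, while Slc38a2, with 20240 without R-spondin against 22729 with R-spondin, had no settled direction: its other 3 probes lay between -0.05 and 0.34, and its value ran from -0.23 to 0.21 over the alternatives.

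**Figure D3:**
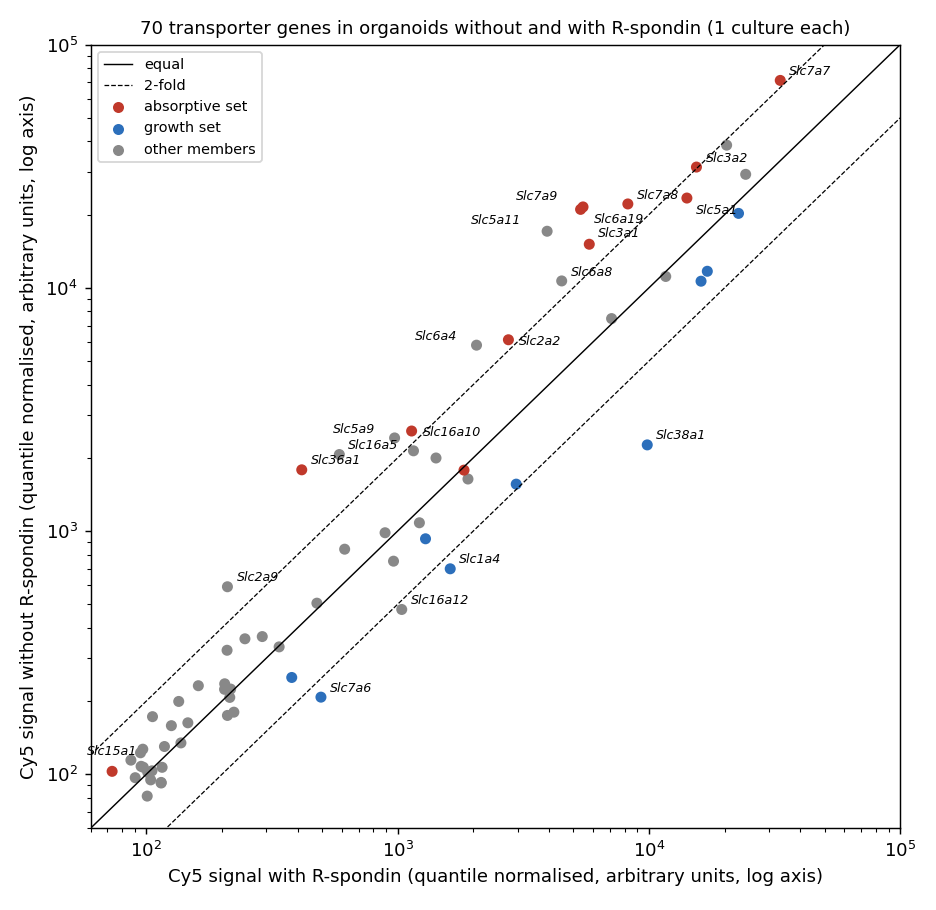
Quantile-normalised Cy5 signal without R-spondin (y axis) against with R-spondin (x axis), both on log axes in arbitrary units, for the 70 transporters measured, in red for the absorptive set with Slc3a2, blue for the rest of the growth set and grey for other members, with the line of equality and dashed 2-fold lines. Of the 15 genes above the upper dashed line 9 are red, and Slc38a1, Slc7a6, Slc1a4 and Slc16a12 lie below the lower one.

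Beside these differences, the summed signal of 6 enterocyte markers usable on both arrays was 286301 without R-spondin, against 127705 with R-spondin, and that of 7 goblet cell markers was 1001960 without R-spondin, against 324118 with R-spondin. Stem cell markers summed to 2639 without R-spondin, against 40516 with R-spondin. Brush border hydrolases had a median log2 difference of 1.53, with 8 of 10 past 2-fold higher. Enterocyte markers had one of 1.44 with 5 of 6, while Ada of this list was past 2-fold lower at -1.08. Goblet cell markers had one of 1.92 with 5 of 7. As ratios to the reference RNA, whose channel had 60.7% and 60.8% of gene probes above background on these arrays, the medians were smaller. In the same order they were 0.96 with 4 of 8, 0.81 with 1 of 5 and 0.50 with 1 of 7. Paneth cell markers had a median of -1.14, or -0.21 by ratio. By Cy5, 6 of 16 intestinal solute carriers outside the rule were past 2-fold higher and 2 lower. Genes of the amino acid response under ATF4 had a median of -0.12. The part of cell composition in these values was not tested.

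The 3 comparisons share no samples and were set side by side. Of the members measured in both, 10 of 15 past 2-fold higher without R-spondin (66.7%) were among the 19 higher on all crypt arrays (52.6% of those), where over all genes 37.5% of the first and 21.4% of the second were shared. Likewise 9 of 15 (60%) were among the 13 that lay above wild type without overlap in deleted organoids (69.2% of those), against 53.1% and 20.5% over all genes. Members were more often higher than all genes, on all crypt arrays (38.5%, against 13.1%) and without overlap in deleted organoids (27.3%, against 18.2%). The larger shares therefore do not measure closer agreement of the called members. Among the lower members, 1 of 4 (25%) was shared with the crypts and 1 of 4 with the deleted organoids, against 30.3% and 67.6% of the lower genes overall. Across members the changes correlated at a Pearson r of 0.573 between crypts and R-spondin withdrawal (47 genes), 0.514 between deleted organoids and R-spondin withdrawal (51 genes) and 0.37 between crypts and deleted organoids (46 genes). Over all genes measured in both they correlated at 0.338, 0.656 and 0.285 in the same order. Genes are not independent replicates and share the array design and probes. For scale, the 2 crypt replicates correlated at 0.482 over 52 members and the 2 organoid slides at 0.618 over 55.

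Single genes did not always keep their place. Slc3a1 was above 0 in all 3 comparisons, with log2 changes of 1.27, 0.48 and 1.38 in deleted crypts, deleted organoids and without R-spondin. Slc6a19 was at 1.18 and 1.98 in deleted crypts and without R-spondin, but its deleted organoids overlapped the wild type ones. Slc36a1 was at 2.10 without R-spondin, at 0.38 in deleted crypts and at -0.16 in deleted organoids. Slc38a1 was at -2.12 without R-spondin, at -0.30 in deleted crypts and at 0.11 in deleted organoids. Tested directly over 11018 genes, the deletion effect differed between organoids and crypts at an adjusted p under 0.05 for none of 46 members (0.436% of all genes) and at an unadjusted p for 9 (10.2% of all genes, limma).

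**Figure D4:**
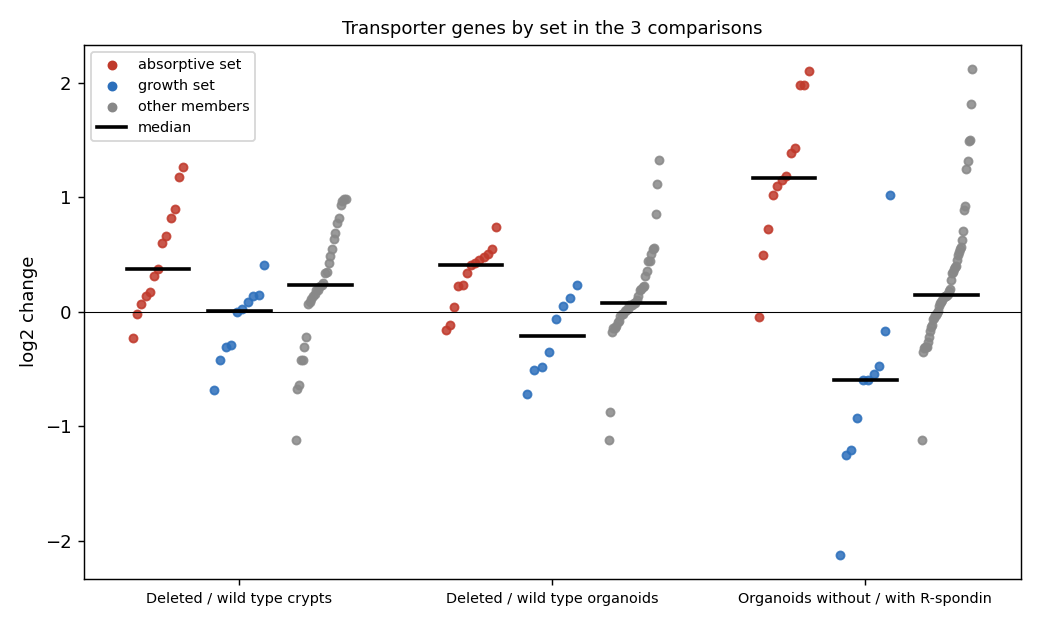
Log2 change (y axis) of each measured transporter in the 3 comparisons (x axis), with red points for the absorptive set, blue for the growth set, grey for other members and a black line for the median of each; Slc3a2 is drawn in both sets. The absorptive medians are 0.38, 0.41 and 1.16 and the growth medians 0.01, -0.21 and -0.60 in deleted crypts, deleted organoids and without R-spondin.

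Promoters were examined because absorptive members lay higher together and others lower together. RefSeq promoters of build GRCm38.p6, from 250 bases before to 50 after the start site, were at hand for 69 members. They were searched on both strands for CTTTGA (the core bound by TCF factors of the Wnt pathway), CAAAGTCCA (bound by HNF4), TTTATG (CDX2) and TGATGNAA (the amino acid response element read by ATF4). CTTTGA was in 13 of 69 member promoters (18.8%), 3 of 13 absorptive and 1 of 8 growth-set ones, against 16.2% of all 27025 promoters. It was in 4 of 12 promoters of members past 2-fold higher without R-spondin and in 1 of 3 of those past 2-fold lower. CAAAGTCCA was in 1 of 69 member promoters, that of the absorptive Slc3a1, and in 0 of 8 growth-set ones, against 0.477% of all. TGATGNAA was in 4 of 69 member promoters (5.8%), 2 of 8 growth-set and 1 of 13 absorptive ones, against 4.06% of all. TTTATG was in 4 of 69 member promoters (5.8%), 0 of 13 absorptive and 0 of 8 growth-set ones, against 12.1% of all. A match describes letters in this window and is not evidence that a factor binds.

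The promoters below belong to 2 of the members past 2-fold higher and 2 of those past 2-fold lower without R-spondin. Capitals mark CAAAGTCCA, CTTTGA and TGATGNAA on either strand. Each promoter shown carries a match, unlike many of the other member promoters. In Slc3a1, CAAAGTCCA begins 39 bases and a CTTTGA on the opposite strand 8 bases before the start site.
Slc3a1 promoter, GRCm38.p6 chr17:85028097-85028396, + strand: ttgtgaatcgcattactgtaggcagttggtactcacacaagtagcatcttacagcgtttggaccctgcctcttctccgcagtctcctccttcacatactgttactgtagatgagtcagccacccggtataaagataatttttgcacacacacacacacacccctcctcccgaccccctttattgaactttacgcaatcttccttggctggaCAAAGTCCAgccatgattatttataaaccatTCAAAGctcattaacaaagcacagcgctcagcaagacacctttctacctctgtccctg
Slc7a7 promoter, GRCm38.p6 chr14:54417895-54418194, - strand: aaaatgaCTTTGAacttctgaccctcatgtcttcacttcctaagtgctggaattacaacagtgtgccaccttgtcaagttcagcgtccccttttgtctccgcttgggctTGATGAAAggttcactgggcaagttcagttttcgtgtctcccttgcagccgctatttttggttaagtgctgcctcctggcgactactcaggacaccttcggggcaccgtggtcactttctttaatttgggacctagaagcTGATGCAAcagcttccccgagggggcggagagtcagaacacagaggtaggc
Slc16a12 promoter, GRCm38.p6 chr19:34747279-34747578, - strand: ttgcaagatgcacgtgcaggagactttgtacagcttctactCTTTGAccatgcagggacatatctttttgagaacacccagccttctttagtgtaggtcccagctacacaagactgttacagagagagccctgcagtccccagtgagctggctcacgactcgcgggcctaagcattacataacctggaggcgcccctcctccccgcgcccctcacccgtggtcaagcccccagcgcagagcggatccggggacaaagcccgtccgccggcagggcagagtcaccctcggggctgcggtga
Slc1a4 promoter, GRCm38.p6 chr11:20332664-20332963, - strand: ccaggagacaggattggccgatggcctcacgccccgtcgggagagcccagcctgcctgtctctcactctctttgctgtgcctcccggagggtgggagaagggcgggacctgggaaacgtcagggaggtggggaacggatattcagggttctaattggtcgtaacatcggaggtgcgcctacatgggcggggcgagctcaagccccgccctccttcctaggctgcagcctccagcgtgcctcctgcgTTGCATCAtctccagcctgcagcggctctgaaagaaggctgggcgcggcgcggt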

How the data were processed

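The 10 arrays of 1 Agilent mouse design were read from the scanner files, which hold, per the file headers, intensity per spot from Agilent Feature Extraction 10.5.1.1 (8.5.1.1 in the submitters' processing notes). The authors' deposited value table holds log10 ratios and served as an alternative, with crypt columns already turned to deleted over wild type. Median pixel intensity was corrected by normexp (offset 50) and marked outlier spots were left out. Crypt ratios were normalised by loess and the 2 dye-swapped arrays of a replicate averaged. Organoid Cy5 signals were quantile normalised. One probe a gene, the brightest, was used, and 44 members had several. Deletion was tested with limma 3.58.1 in R 4.3.3, Benjamini-Hochberg adjusted over all genes measured, and R-spondin withdrawal by a 2-fold rule. Fits were tested on simulated data.

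Genes were named by a rule: 20 fixed members, and in each comparison up to 8 highest and 8 lowest members that were on 1 side of 0 on all 4 crypt arrays, had organoid groups apart, or were past 2-fold. The members, lists and rules were chosen with earlier results of these data known. Slide membership was read from the scanner files: each deletion slide holds 1 deleted and 1 wild type culture. All 97 members matched the reference table. Names on the array are those of its design and can be old. No spot was saturated, and the number of arrays limits the precision. Alternatives were processed signals, the value table, other scaling, outliers kept, mean pixel signals, other filters, all probes, the slide as a block and leaving out replicates.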

Additional observations from a re-analysis of the deposited data

Results flagged for a closer look

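Slc2a10, a facilitative carrier of the glucose carrier family, lay on opposite sides in the 2 deletion systems. It had signals of 121 and 151 in deleted organoids, against 102 and 96.4 in wild type organoids, where neither culture was well above background, so the organoid change is known only as at least 1.36-fold higher. In crypts its log2 change was -0.14 in replicate 1 and -0.30 in replicate 2, over 3 usable arrays. Taken at those signals, the organoid change exceeded the crypt change by 0.66 on the log2 scale. In the direct test of organoids against crypts this difference had an SE of 0.30 and a limma adjusted p of 0.503. That test took the wild type organoid signals as they stood, although their level is a bound.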

How the results depend on the processing

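Deleted crypts. With processed signals, which match the value table, the median was 0.29 over the members, 0.61 in the absorptive set and -0.039 in the growth set, and 3 members passed the adjusted test higher and 1 lower. With outlier spots kept the median was 0.22, with 3 higher and 1 lower (Slc16a1, limma adjusted p = 0.0482). With the mean over probes 5 passed higher and 2 lower, with no filter the median was 0.074 and 8 were lower on all arrays, and with mean pixel signals 2 were lower at an unadjusted p. Apart from the organoid ratio counts with groups apart, counts here and below have no share of all genes under the same setting. They describe how the calls moved with the setting and not whether the members stood out. Leaving out 1 replicate gave medians of 0.25 to 0.26 over the members and 0.21 to 0.59 in the absorptive set. In the growth set they were 0.0012 to 0.062. On every array of the replicate kept, 4 to 11 members were lower. These fits held 1 crypt replicate beside the organoid ratios and took their spread from the organoid cultures, so no p is given for them.

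Deleted organoids. By ratio the medians were 0.023 and 0.063 (absorptive), with 1 higher and 1 lower at an unadjusted p and 9 and 3 with groups apart. In the value table they were 0.21, 0.28 (absorptive) and 0.053 (growth), with 0 called at an unadjusted p in either direction and 0 lower with groups apart. Processed Cy5 signals gave an absorptive median of 0.29 and 8 higher at an unadjusted p. Scaling to the 75th percentile gave 0.13, outliers kept an absorptive 0.28, the mean over probes 0.11, and no filter 11 higher at an unadjusted p and 11 lower with groups apart. With the slide as replicate block 2 passed the adjusted test, both higher, and 12 higher and 5 lower passed an unadjusted one. Leaving out 1 culture gave medians of 0.048 to 0.16 over the members and 0.29 to 0.36 in the absorptive set. Then 22 to 26 members were higher and 13 to 15 lower with groups apart, where fewer cultures separate more easily.

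Without R-spondin. The member median was 0.21 by ratio, 0.42 with processed signals, 0.26 in the value table, 0.11 with no filter and 0.20 with mean pixel signals. The absorptive median was 1.65 with processed signals, 1.02 in the value table, 1.47 at the 75th percentile and 1.05 with the mean over probes. Past 2-fold lower were 7 with processed signals and 7 in the value table.

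Some members turned sign. In crypts Slc7a8 was 0.048 with processed signals and 0.017 with mean pixel signals, Slc7a5 was 0.076 with processed signals and 0.0040 with outliers kept, and Slc15a1 was -0.12 and Slc38a2 -1.27e-05 with outliers kept. Without 1 replicate Slc15a1 ran from -0.88 to 1.00, Slc7a9 from -0.096 to 0.44, Slc7a5 from -0.043 to 0.037 and Slc7a8 from -0.24 to 0.20. In organoids by ratio Slc6a4 was -0.0060, Slc16a6 -0.18, Slc7a6 0.19, Slc2a1 -0.057, Slc7a8 0.12 and Slc6a19 -0.021. In the value table Slc7a5 was 0.30, Slc16a8 0.044, Slc2a3 0.046, Slc1a5 0.35 and Slc36a1 0.27. Slc7a8 was 0.0064 with processed signals and 0.0079 at the 75th percentile, where Slc38a2 was 0.049. Without 1 culture Slc2a1 ran from -0.61 to 0.71, Slc36a1 from -0.58 to 0.25, Slc38a2 from -0.28 to 0.15, Slc7a8 from -0.35 to 0.11, Slc6a19 from -0.35 to 0.80 and Slc2a2 from -0.013 to 0.10. Without R-spondin Slc6a4 was -0.59 and Slc5a1 -0.23 in the value table, and Slc5a1 was -0.026 by ratio. Slc38a2 was 0.21 at the 75th percentile and 0.028 with the mean over probes. Slc1a1 was 0.0026 by ratio, 0.16 with processed signals, 0.076 in the value table and 0.28 with the mean over probes. Slc6a14 was 0.043 with processed signals and 0.11 in the value table. The causes were not tested.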
